A study of Mus musculus with 2 samples.

Results

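Ms4a4c Ccr2 monocytes were drawn from CD45+ leukocytes of the mouse heart by their own transcript counts. A cell needed at least 3 unique molecular identifiers (UMIs) of Ms4a4c, a membrane protein gene of the MS4A family, and at least 3 of Ccr2, the receptor for the chemokine CCL2. It also needed fewer than 5 UMIs of Chil3, fewer than 3 of Areg, Inhba and Il6 together, fewer than 10 of the C1q genes C1qa, C1qb and C1qc together, fewer than 5 of Arg1 and fewer than 10 of Ccl24. Lyve1, Folr2, Cbr2 and Timd4, genes of resident macrophages, had to sum to fewer than 3, and Cd209a and Flt3, genes of dendritic cells, to fewer than 2. Cells entered this selection with at least 4000 UMIs, at most 20% mitochondrial UMIs and under 0.1% of UMIs from 6 neutrophil genes (G0s2, Il1r2, Hdc, Mmp9, Csf3r and Cxcr2). The selection left 68 monocytes of 5087 barcodes in the splenectomy library and 172 of 6210 in the sham library, 240 of 11297 in all.

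Wild-type male C57BL/6J mice aged 8 weeks had either splenectomy or a sham operation, and the library called sham here is the one titled with the injury alone. Every mouse also had its left anterior descending coronary artery closed for 60 min, with 24 h of reperfusion before the heart was taken, so neither group shows an uninjured heart. CD45+ cells, which are leukocytes, were isolated with magnetic beads and sequenced as 3' single-cell libraries. Each group is 1 library and how many animals it holds is not stated, so no test between the groups was possible and each difference describes these libraries. All intervals are exact 95% intervals for counting error only.

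Classical monocytes leave the marrow by way of CCR2, enter injured tissue and give rise there to macrophages and to cells that present antigen on MHC class II. Interferons act on monocytes through receptors that signal over JAK kinases to transcription factors of the STAT and IRF families, and these switch on antiviral genes through a short DNA element, the ISRE. Ms4a4c is itself known as a gene that interferon induces in mouse myeloid cells, and the spleen is known to hold a store of monocytes that the injured heart draws on.

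The ISRE was looked for as 2 copies of the letters GAAA with any 2 bases between them, on both strands, with overlapping matches counted, in RefSeq sequence of GRCm38.p6. Of 27025 promoters of 250 bases before the gene start, 3.46% held it. It was present in 12 of 25 measured antiviral genes with a sequence, in 7 of 8 PYHIN genes, in 5 of 5 GBP and IRG genes and in 0 of 6 Ms4a genes. The 220 bases before the start are shown because these genes carry the results on interferon: for Ms4a4c, the gene that chose the cells (chr19:11407441-11407660, + strand), for Bst2 (chr8:71537473-71537692, - strand), for Isg15 (chr4:156200819-156201038, - strand) and for Cxcl10 (chr5:92348890-92349109, - strand), each 5′ to 3′ on its gene's strand with the ISRE letters in capitals.
Ms4a4c: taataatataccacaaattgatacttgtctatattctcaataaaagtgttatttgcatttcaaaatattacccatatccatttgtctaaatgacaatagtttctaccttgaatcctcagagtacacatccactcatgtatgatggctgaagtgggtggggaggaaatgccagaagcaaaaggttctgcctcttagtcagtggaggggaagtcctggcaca
Bst2: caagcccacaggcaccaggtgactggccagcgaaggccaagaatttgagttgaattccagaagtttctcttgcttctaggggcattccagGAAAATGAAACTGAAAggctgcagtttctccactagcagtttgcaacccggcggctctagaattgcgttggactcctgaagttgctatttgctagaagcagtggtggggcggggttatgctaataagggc
Isg15: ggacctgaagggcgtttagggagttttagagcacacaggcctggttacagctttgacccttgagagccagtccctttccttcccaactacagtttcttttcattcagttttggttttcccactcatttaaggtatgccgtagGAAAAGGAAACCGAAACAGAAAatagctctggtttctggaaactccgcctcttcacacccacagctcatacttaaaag
Cxcl10: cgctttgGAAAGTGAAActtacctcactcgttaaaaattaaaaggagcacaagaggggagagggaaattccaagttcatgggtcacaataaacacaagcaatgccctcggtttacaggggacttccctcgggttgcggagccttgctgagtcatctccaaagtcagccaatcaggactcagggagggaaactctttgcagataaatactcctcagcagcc
The ISRE letters in Bst2 begin at position -130 from the start and overlap a second match at -124, those in Isg15 begin at -78 and run through 3 overlapping matches, and that in Cxcl10 lies at -213 to -204. The window of Ms4a4c holds none of these letters. However, this window lies before a RefSeq start that is inside the annotated span of the gene (chr19:11404770-11427246). The bases before the first base of that span are not shown, so the absence holds for the printed window only. A match is a description of the sequence and not of binding.

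The monocytes were a smaller share of the cells in the splenectomy library. They made up 2.61% (2.03% to 3.30%) of 2604 cells that passed the quality limits in the splenectomy library, and 6.20% (5.33% to 7.16%) of 2776 in the sham library, a difference of -3.58 percentage points. A share of this kind is set by all other cells of a library as well, and the cell numbers of the hearts were not measured. The Chil3 monocytes, chosen by the same conditions with at least 5 Chil3 UMIs and without a condition on Ms4a4c, held 10.4% of cells in the splenectomy library and 10.7% in the sham library. Ccr2 monocytes with at least 3 UMIs of Areg, Inhba and Il6 held 2.57% in the splenectomy library and 1.55% in the sham library.

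The condition on Ms4a4c itself kept fewer cells in the splenectomy library. Of 158 cells that met every other condition in the splenectomy library, 43.0% (35.2% to 51.1%) also had 3 Ms4a4c UMIs, against 72.6% (66.4% to 78.2%) of 237 in the sham library. Over all cells within the quality limits, 36.3% had at least 3 Ms4a4c UMIs in the splenectomy library and 55.2% in the sham library. Just outside the limit, at 2 Ms4a4c UMIs, stood 21 cells in the splenectomy library and 15 in the sham library, and just inside it, at 3 UMIs, 10 and 20 cells in the same order of libraries. For Ccr2 the cells with 2 UMIs numbered 13 in the splenectomy library and 24 in the sham library, and those with 3 UMIs 10 and 29. When all gene limits were applied to cells thinned to 4000 UMIs, the share was 1.08% in the splenectomy library and 2.20% in the sham library, a difference of -1.12 points.

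The chosen cells were deep and alike in depth. Their median was 12600.5 UMIs, from 2909.5 genes, in the splenectomy library, and 11807 UMIs, from 2722.5 genes, in the sham library. Summed, they gave 911423 UMIs in the splenectomy library and 2126974 in the sham library. Because the sham monocytes held 2.33 times as many UMIs, a minimum of counts is reached more easily by a gene that is higher in the sham library. The libraries shared 9 barcodes, of which 0 belonged to these monocytes. Ptprc, the gene of CD45, had a UMI in 92.6% of the monocytes in the splenectomy library and 94.2% in the sham library. The summed level of 5 other lineages was near 0: fibroblast, cardiomyocyte, platelet, erythroid and mast cell or eosinophil markers each gave at most 14 UMIs in a library, and natural killer cell markers gave 3 UMIs in the splenectomy library and 13 in the sham library. T cell markers gave 0 UMIs in the splenectomy library and 40 in the sham library, where 2 cells had at least 3 of 6 of them. Other lists were less scarce. Endothelial cell markers gave 8 UMIs in the splenectomy library and 42 in the sham library, and nonclassical monocyte markers 122 and 497. Plasmacytoid dendritic cell markers gave 62 and 169 UMIs, of which 54 and 142 were Tcf4. Resident macrophage markers, some of which the rule limited, gave 49 and 159.

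A set of 5 marker genes had been proposed for the cells as interferon-primed monocytes, and the data bear this name out only in part. Ms4a4c was used by the rule and had 556 CPM, counts per 1e+06 UMIs of these cells, in the splenectomy library and 803 CPM in the sham library. Ms4a6c, another MS4A gene, had 1042 CPM in the splenectomy library and 1014 CPM in the sham library, a log2 ratio of 0.04. It was almost level between the libraries, while the other markers were lower in the splenectomy library. Aif1, an actin-binding protein gene of the myeloid line, had 187 CPM in the splenectomy library and 304 CPM in the sham library (log2 ratio -0.71, -0.96 to -0.46). Fcgr1, the high-affinity receptor for IgG, had 238 CPM in the splenectomy library and 335 CPM in the sham library (log2 ratio -0.49). Cfb, complement factor B, had 17.6 CPM in the splenectomy library and 44.2 CPM in the sham library (log2 ratio -1.33, -2.20 to -0.56).

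These markers did not set the cells apart from Chil3 monocytes. Chil3 monocytes had more Aif1, at 284 CPM in the splenectomy library and 385 CPM in the sham library, more Cfb, at 25.9 and 76.0 CPM, and more Fcgr1, at 255 and 456 CPM. Ccr2 cells with under 3 Ms4a4c UMIs had less Aif1, Cfb and Fcgr1 than the monocytes in both libraries, but natural killer cell markers reached 478 CPM there in the splenectomy library and 2454 CPM in the sham library. The cells are therefore called Ms4a4c Ccr2 monocytes here, after the genes that chose them.

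**Figure D1:**
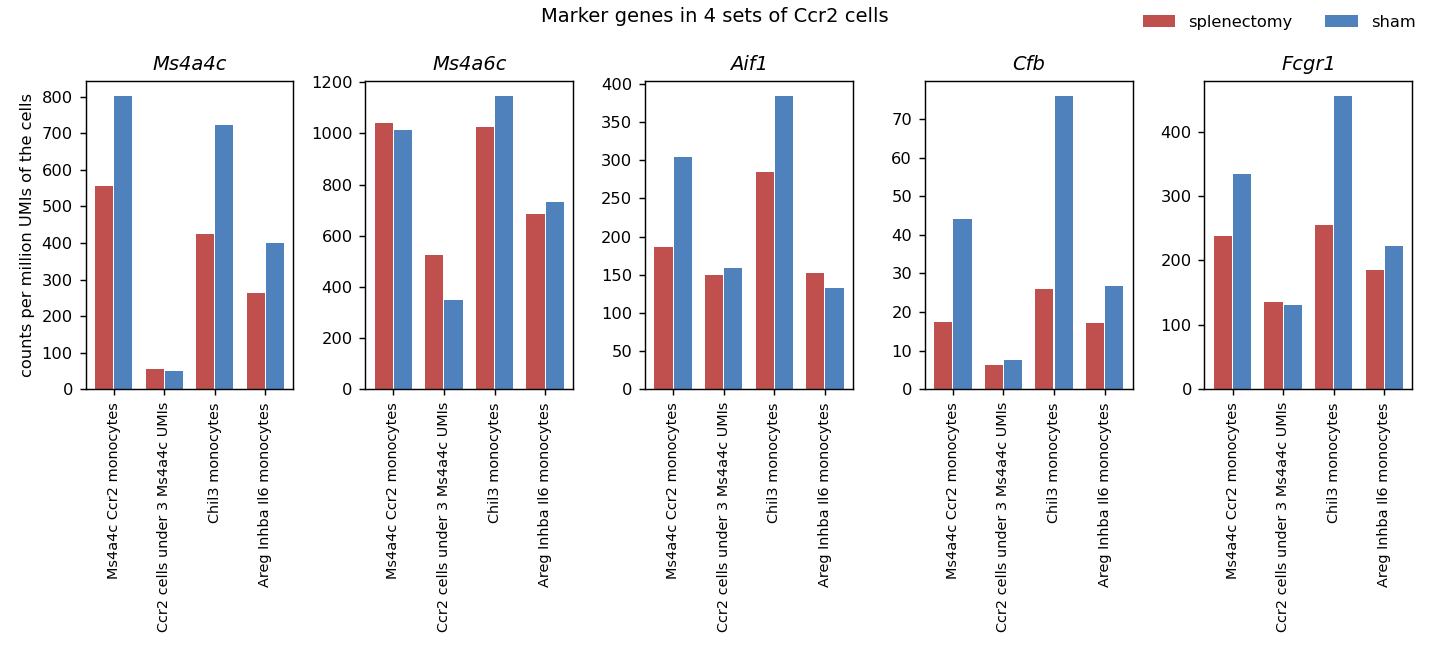
Levels of the 5 marker genes in CPM (vertical axis, linear) in 4 sets of Ccr2 cells, with the splenectomy library left of the sham library. Aif1, Cfb and Fcgr1 stand higher in Chil3 monocytes than in Ms4a4c Ccr2 monocytes in both libraries.

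Antiviral effectors, the proteins that block viral replication, were lower in the splenectomy library. Summed over 35 genes they had 8769 CPM in the splenectomy library and 12169 CPM in the sham library, a log2 ratio of -0.47 (-0.51 to -0.44). Without Ifitm3 and Ifi27l2a, the 2 most abundant, the sums were 1878 CPM in the splenectomy library and 2940 CPM in the sham library (log2 ratio -0.65). Each cell was also thinned to 4000 UMIs. A monocyte of the splenectomy library then held a median of 35.5 antiviral UMIs (quartiles 21.75 and 50.25, range 7 to 87), and one of the sham library held 47 (quartiles 34.75 and 65, range 12 to 165). The distributions overlapped widely: 35.3% of 68 cells in the splenectomy library and 54.7% of 172 in the sham library lay above 43, the median of all of them.

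The median was also lower in the splenectomy library within each bin of Ms4a4c count. The bins use Ms4a4c UMIs before thinning, so depth is not held alike in them. The last bin is open and reaches 22 UMIs in the splenectomy library and 33 in the sham library. With 3 to 4 Ms4a4c UMIs the median was 30 antiviral UMIs in the splenectomy library and 40 in the sham library. With 5 to 9 Ms4a4c UMIs it was 30.5 in the splenectomy library and 41 in the sham library. With 10 or more it was 51 in 15 cells of the splenectomy library and 57 in 72 cells of the sham library. In both libraries the cells with 10 or more Ms4a4c UMIs had the highest median.

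Other monocytes held antiviral transcripts as well. In the splenectomy library the median was 35.5 UMIs in the Ms4a4c Ccr2 monocytes and 22 in Chil3 monocytes, and in the sham library it was 47 in the Ms4a4c Ccr2 monocytes and 51 in Chil3 monocytes. The log2 ratio of the sum was -0.47 in the Ms4a4c Ccr2 monocytes, -0.39 in Ccr2 cells with under 3 Ms4a4c UMIs, -0.78 in Areg Inhba Il6 monocytes and -1.005 in Chil3 monocytes. A lower sum was not particular to monocytes. The log2 ratio was -0.49 (-0.58 to -0.40) in B cells and -0.79 in all other cells within the quality limits. B cells, taken as background, had medians of 4 UMIs in the splenectomy library and 8 in the sham library. These differences between sets were not tested, and the minimum of Ms4a4c, a gene induced by interferon, was part of the choice of cells.

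**Figure D2:**
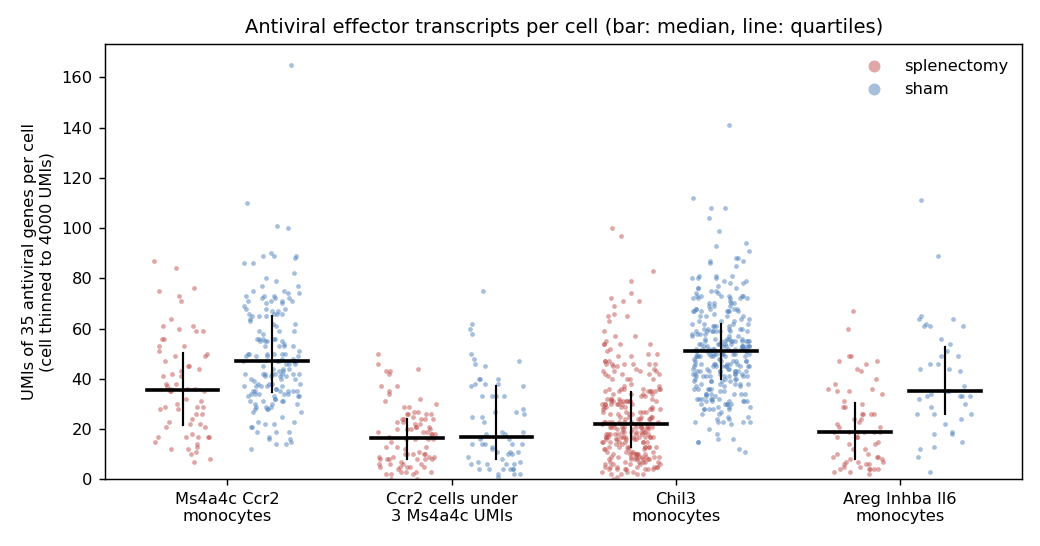
UMIs of 35 antiviral genes per cell after thinning to 4000 UMIs (vertical axis), with 1 point per cell and the splenectomy library left of the sham library. The medians of the Ms4a4c Ccr2 monocytes are 35.5 and 47, and those of Chil3 monocytes 22 and 51.

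Within the list the size of the difference varied. A gene is called measured if the library of higher CPM held 20 counts or more. Of 5772 measured genes, 5.37% stood 1.5-fold or more above sham in the splenectomy library and 12.2% stood 1.5-fold or more below. Of 32 measured antiviral genes 0 were 1.5-fold higher and 19 were 1.5-fold lower, with a median log2 ratio of -0.65 beside -0.05 over all measured genes. Ifi27l2a, a mitochondrial protein gene that interferon induces strongly, had 3017 CPM in the splenectomy library and 5145 CPM in the sham library (log2 ratio -0.77). Bst2, which tethers budding virus to the cell, had 309 CPM in the splenectomy library and 588 CPM in the sham library (log2 ratio -0.93, -1.12 to -0.74). Isg15, a ubiquitin-like modifier, had 281 CPM in the splenectomy library and 379 CPM in the sham library (log2 ratio -0.43). Ifitm3, which blocks fusion of virus with endosomes, was nearly level, at 3873 CPM in the splenectomy library and 4084 CPM in the sham library (log2 ratio -0.08).

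Several scarcer antiviral genes had lower ratios. Ifi44 had 13.2 CPM in the splenectomy library and 34.8 CPM in the sham library (log2 ratio -1.40), and Usp18, the protease that takes ISG15 off its targets, had 14.3 and 33.9 CPM (log2 ratio -1.25). Oasl1, of the oligoadenylate synthetase family, had a log2 ratio of -1.07, Phf11b -0.95, Rsad2, the enzyme viperin, -0.84 and Parp14 -0.82. Eif2ak2, the kinase PKR that stops translation on viral RNA, was level at 39.5 CPM in the splenectomy library and 37.1 CPM in the sham library (log2 ratio 0.09). The sensors of viral nucleic acid upstream of these genes summed to 171 CPM in the splenectomy library and 215 CPM in the sham library, and of 6 measured sensors 0 were 1.5-fold higher and 1 was lower.

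The PYHIN genes, which encode DNA-binding proteins such as the sensor Ifi204, had 9 measured members. Of these 0 were 1.5-fold higher and 3 were lower. Ifi205 had 54.9 CPM in the splenectomy library and 129.8 CPM in the sham library (log2 ratio -1.24), and Ifi206 had 19.7 and 48.9 CPM (log2 ratio -1.31). Guanylate-binding proteins and IRG GTPases, which attack the vacuoles of pathogens, had 6 measured members, with 0 higher and 4 lower. Gbp2 had 3 UMIs in the splenectomy library and 47 in the sham library, of which 38.3% lay in 1 cell. Of 5 Schlafen genes 0 were higher and 3 were lower. Slfn5 had 137 CPM in the splenectomy library and 266 CPM in the sham library (log2 ratio -0.95), while Slfn2, the most abundant, had 917 CPM in the splenectomy library and 799.7 CPM in the sham library (log2 ratio 0.20).

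Among the 18 genes of interferon signalling, the 4 receptor chains were within 1.5-fold and 5 transcription factor genes were lower. Ifnar1 and Ifnar2, the chains of the type I receptor, had log2 ratios of -0.04 and -0.16, and Ifngr1 and Ifngr2 of the type II receptor had 0.27 and -0.03. Irf7, a factor that amplifies the type I response, had 176 CPM in the splenectomy library and 368 CPM in the sham library (log2 ratio -1.07, -1.32 to -0.82). Irf1, a factor of the type II response, had 26.3 CPM in the splenectomy library and 87.0 CPM in the sham library (log2 ratio -1.72, -2.40 to -1.11). Irf8 and Stat2 were also 1.5-fold lower, at log2 ratios of -0.79 and -0.74. Only 2 genes of the list, the kinase gene Tyk2 and the factor gene Irf3, were 1.5-fold higher, at 0.89 and 0.78, and each rested on at most 34 UMIs a library. The interferons themselves were almost unseen, with 0 UMIs in the splenectomy library and 3 in the sham library, all 3 of Ifnb1 in 1 cell.

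The 16 genes of the MHC class I pathway, which shows peptides to CD8 T cells, followed with 0 higher and 5 lower at 1.5-fold. H2-Q7 had 98.7 CPM in the splenectomy library and 216 CPM in the sham library (log2 ratio -1.13). B2m, the light chain, had 1588 CPM in the splenectomy library and 2272 CPM in the sham library (log2 ratio -0.52). The proteasome activator genes Psme1 and Psme2 lay closer to level, at log2 ratios of -0.23 and -0.15.

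A stricter count, at 2-fold and a minimum of 50 counts, took in 3435 genes. It held 22 genes that were higher (0.64%) and 70 that were lower (2.04%) in the splenectomy library. Over 7 interferon lists together, 77 genes were covered, of which 0 were 2-fold higher and 11 were 2-fold lower (14.3%).

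**Figure D3:**
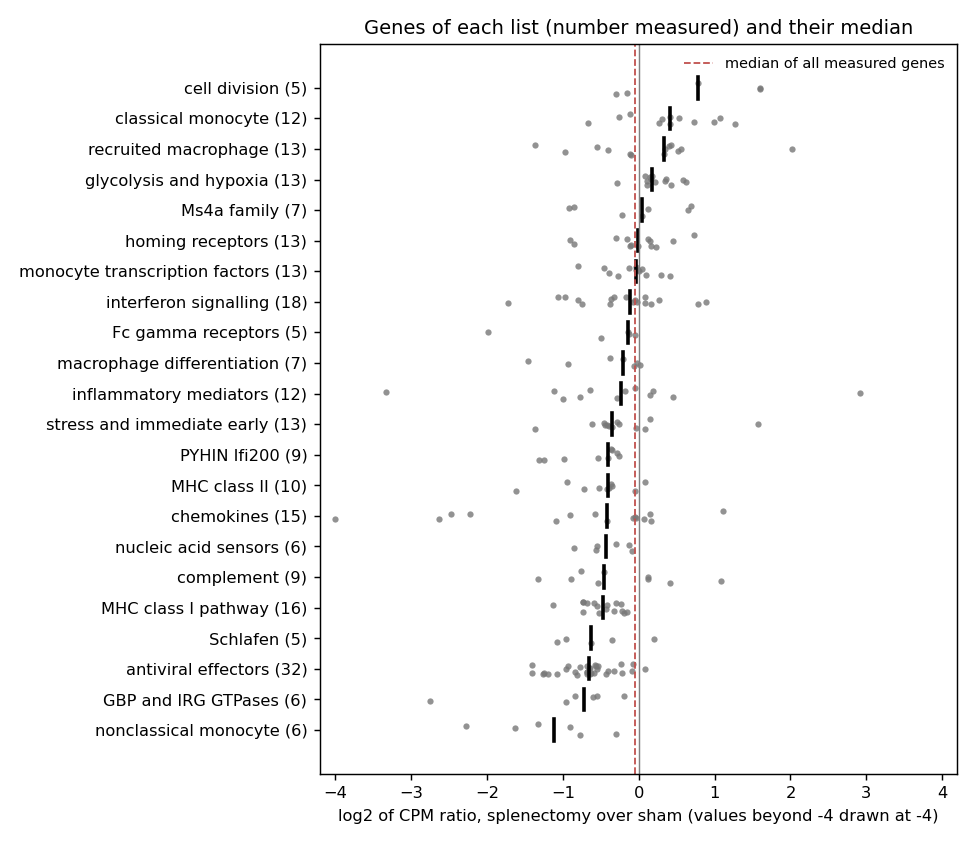
Log2 ratio of CPM, splenectomy over sham, for the measured genes of each list with at least 5 of them (points) and the list median (black bars), beside the median of all measured genes (dashed line, -0.05). The medians of the antiviral, GBP and IRG, Schlafen and nonclassical monocyte lists lie farthest to the left.

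The MS4A family, to which Ms4a4c belongs, did not move as one. Of 7 measured members other than Ms4a4c, 2 were 1.5-fold higher and 2 were 1.5-fold lower, with a median log2 ratio of 0.04, or -0.56 without the monocytes that held at least 4 neutrophil markers. Ms4a6d had 474 CPM in the splenectomy library and 436 CPM in the sham library, and Ms4a6b had 349 and 408 CPM. Ms4a8a was among the higher, at 40.6 CPM in the splenectomy library and 25.9 CPM in the sham library (log2 ratio 0.65). Ms4a7, a gene of macrophages, was among the lower, at 21.9 CPM in the splenectomy library and 41.4 CPM in the sham library (log2 ratio -0.91).

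The Ly6 and Fc gamma receptor genes given here, and Cd72, were lower in the splenectomy library by amounts that varied. Ly6a, the surface antigen Sca-1 that interferon induces, had 193 CPM in the splenectomy library and 410 CPM in the sham library (log2 ratio -1.09, -1.33 to -0.85). Ly6c2, the antigen by which mouse classical monocytes are sorted, had 619 CPM in the splenectomy library and 738 CPM in the sham library (log2 ratio -0.25). Fcgr4, an activating IgG receptor, had 16.5 CPM in the splenectomy library and 65.4 CPM in the sham library (log2 ratio -1.99, -2.87 to -1.22). It had a UMI in 4.41% of thinned monocytes and 3.39% of thinned B cells in the splenectomy library, and in 20.3% of monocytes and 1.89% of B cells in the sham library. The other 4 Fc gamma receptor genes were within 1.5-fold, at log2 ratios of -0.49 to -0.05. Cd72, a lectin-like receptor best known on B cells, had 8.78 CPM in the splenectomy library and 66.3 CPM in the sham library (log2 ratio -2.92). The B cell gene Ms4a1 had no UMI in the monocytes of either library, and Cd79a had none in those of the splenectomy library. B cell markers together gave 27 UMIs in the splenectomy library and 117 in the sham library, of which 22 and 83 were Ighm. The part of B cell RNA in the Cd72 values was not tested.

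Genes of classical monocytes were mostly higher in the splenectomy library. Of 12 measured members that the rule did not use, 4 were 1.5-fold higher and 1 was lower, and 9 had an interval above 0 and 2 below it. Over all 5772 measured genes 513 had an interval above 0 and 471 below it. Vcan, a matrix proteoglycan gene, had 284 CPM in the splenectomy library and 118 CPM in the sham library (log2 ratio 1.27, 1.01 to 1.52). Hp, haptoglobin, had 565 CPM in the splenectomy library and 269 CPM in the sham library (log2 ratio 1.07). F13a1, a clotting factor chain, had 407 CPM in the splenectomy library and 204 CPM in the sham library (log2 ratio 0.996). Vcan was above background: thinned monocytes had a UMI of it in 42.6% of cells in the splenectomy library and 27.9% in the sham library, and thinned B cells in 6.78% and 7.55%. Plac8 went the other way, at 1580 CPM in the splenectomy library and 2502 CPM in the sham library (log2 ratio -0.66). Of 13 transcription factor and growth factor receptor genes of monocytes 0 were 1.5-fold higher and 1, Irf8, was lower (log2 ratio -0.79).

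Nonclassical monocytes patrol vessels and carry Cx3cr1 and Treml4. Of 6 measured genes of this list 0 were higher and 5 were lower, but all were scarce. Cx3cr1 had 34 UMIs in the splenectomy library and 148 in the sham library (log2 ratio -0.90), and Treml4 had 4 and 45 UMIs (log2 ratio -2.27). The whole list of 10 genes summed to 134 CPM in the splenectomy library and 234 CPM in the sham library, and Cd300e was at 0 in the splenectomy library. At least 3 of the 10 had a UMI in 7 monocytes of the splenectomy library (10.3%) and 29 of the sham library (16.9%). The part of nonclassical monocytes in these ratios was not tested.

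The 12 highest ratios were named by their size, so their values are a description. Saa3, an acute-phase protein, had 515 CPM in the splenectomy library and 68.2 CPM in the sham library (log2 ratio 2.92, 2.64 to 3.19). It had a UMI in 41.2% of the monocytes in the splenectomy library and 15.1% in the sham library, and 1 sham cell held 33.1% of its sham UMIs. S100a8, a calprotectin subunit that neutrophils make in bulk, had 824 CPM in the splenectomy library and 126 CPM in the sham library (log2 ratio 2.71). Lcn2, an iron-scavenging protein, had 156 CPM in the splenectomy library and 24.0 CPM in the sham library (log2 ratio 2.70). Its UMIs were seen in 38.2% of the monocytes in the splenectomy library and 11.05% in the sham library. Lrg1, a glycoprotein of the acute phase, had 145 and 28.7 CPM (log2 ratio 2.34). Slpi, a protease inhibitor, had 497 CPM in the splenectomy library and 162 CPM in the sham library (log2 ratio 1.62). Timp1, an inhibitor of matrix metalloproteinases, had 223 CPM in the splenectomy library and 63.5 CPM in the sham library (log2 ratio 1.81), with 41.4% of its splenectomy UMIs in 1 cell. Ifitm1, an interferon-induced membrane protein gene outside the antiviral list, had 1076 CPM in the splenectomy library and 457 CPM in the sham library (log2 ratio 1.24), Trf, transferrin, had 147 and 71.9 CPM (log2 ratio 1.03) and Tmem176a had 177 and 89.3 CPM (log2 ratio 0.98). With gene limits applied to thinned cells the ratio of Timp1 turned to -1.99 and that of Ifitm1 to -0.65 on the log2 scale.

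Neutrophil transcripts moved with these genes. The list of 12 neutrophil markers, S100a8 and Lcn2 among them, summed to 1334 CPM in the splenectomy monocytes, with 10 of 12 detected, and to 431 CPM in the sham monocytes, with 11 of 12 detected. The rise was not particular to these cells. In Chil3 monocytes the list summed to 4908 CPM in the splenectomy library and 1332 CPM in the sham library. In all cells within the quality limits other than the Ms4a4c Ccr2 monocytes it summed to 1700 and 605 CPM. Within the Ms4a4c Ccr2 monocytes Ly6g was at 0 in both libraries and Mmp9 at 0 in the splenectomy library. Mmp9 is a gene of the neutrophil gene limit, so the selection itself held its count down. The sums, the numbers of markers detected and the markers per cell were limited likewise for every marker under that limit. They therefore do not measure freely how much neutrophil RNA these cells held. Without the monocytes that held at least 4 of these markers, 42 cells remained in the splenectomy library and 131 in the sham library. The log2 ratio was then 2.49 for Saa3, 2.54 for Lrg1, 1.70 for Lcn2, 1.04 for Slpi and 0.92 for S100a8, and 12 of 2679 genes were 2-fold higher, beside 22 of 3435 with all the monocytes. S100a8 had a UMI in 51.5% of thinned monocytes in the splenectomy library and 33.1% in the sham library. B cells, which do not make it, had one in 42.4% of thinned cells in the splenectomy library and 54.7% in the sham library. Their median depths were 6998 and 6472 UMIs before thinning. The B cells were not held to the neutrophil gene limit. Their neutrophil markers summed to 7050 CPM in the splenectomy library and 8956 CPM in the sham library. They are therefore not a like background for neutrophil genes, and the S100a8 of the monocytes cannot be told apart from background here. Saa3 had a UMI in 26.5% of thinned monocytes and 6.78% of thinned B cells in the splenectomy library, and in 8.72% of monocytes and 11.3% of B cells in the sham library. Lcn2 had one in 25% of thinned monocytes and 10.2% of thinned B cells in the splenectomy library, and in 5.23% of monocytes and 9.43% of B cells in the sham library. For Saa3 the intervals of monocytes (16.5% to 38.6%) and B cells (1.88% to 16.5%) nearly touch in the splenectomy library and overlap in the sham library. For Lcn2 the intervals of monocytes and B cells overlap in the splenectomy library, at 15.3% to 37.0% and 3.82% to 20.8%.

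Chemokines that draw T cells and monocytes were among the lowest ratios. Cxcl10, a ligand of CXCR3 that interferon induces, had 23.04 CPM in the splenectomy library and 143 CPM in the sham library (log2 ratio -2.63, -3.35 to -1.99). After thinning it had a UMI in 5.88% of the monocytes and 3.39% of B cells in the splenectomy library, and in 15.1% of the monocytes and 7.55% of B cells in the sham library. The intervals of monocytes and B cells overlap in both libraries (1.63% to 14.4% and 0.413% to 11.7% in the splenectomy library, 10.1% to 21.4% and 2.09% to 18.2% in the sham library). Ccl7, a ligand of CCR2, had 76.8 CPM in the splenectomy library and 357 CPM in the sham library (log2 ratio -2.22, -2.59 to -1.86). Ccl2, the main ligand of CCR2, was level, at 1166 CPM in the splenectomy library and 1199 CPM in the sham library (log2 ratio -0.04). Ccl7 had a UMI in 11.8% of thinned monocytes and 23.7% of thinned B cells in the splenectomy library, and in 27.3% of monocytes and 22.6% of B cells in the sham library, so the splenectomy value is at background and the sham value close to it. With gene limits applied to thinned cells, which left 28 monocytes in the splenectomy library and 61 in the sham library, the log2 ratio of Ccl7 was 1.32. Of 15 measured chemokines 1 was 1.5-fold higher and 6 were lower. Their median log2 ratio was -0.42, and 0.22 with gene limits applied to thinned cells. Ccl5 had 2 UMIs in the splenectomy library and 474 in the sham library, but 84.8% of those in the sham library lay in 1 cell, and Cxcl9 had 0 and 39 UMIs with 97.4% in 1 cell.

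Of 12 measured inflammatory mediators 1, Saa3, was 1.5-fold higher and 5 were 1.5-fold lower. Il1b and Ptgs2 were higher by less than 1.5-fold. Il1b, the cytokine interleukin 1 beta, had 4950 CPM in the splenectomy library and 4332 CPM in the sham library (log2 ratio 0.19), and Ptgs2, the inducible cyclooxygenase, had 531 and 388 CPM (log2 ratio 0.45). Tnf had 48.3 CPM in the splenectomy library and 104 CPM in the sham library (log2 ratio -1.11), and Il1rn, the antagonist of interleukin 1, had 109 and 169 CPM (log2 ratio -0.64). Rgs1, a brake on chemokine receptors, had 97.6 CPM in the splenectomy library and 338 CPM in the sham library (log2 ratio -1.79). The scavenger receptor genes Olr1 and Stab1 had log2 ratios of -2.13 and -1.41, the efferocytosis receptor gene Axl -1.45, the immediate early gene Egr1 -1.36, the tetraspanin gene Cd63 -1.34 and Tent5c -1.89.

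**Figure D4:**
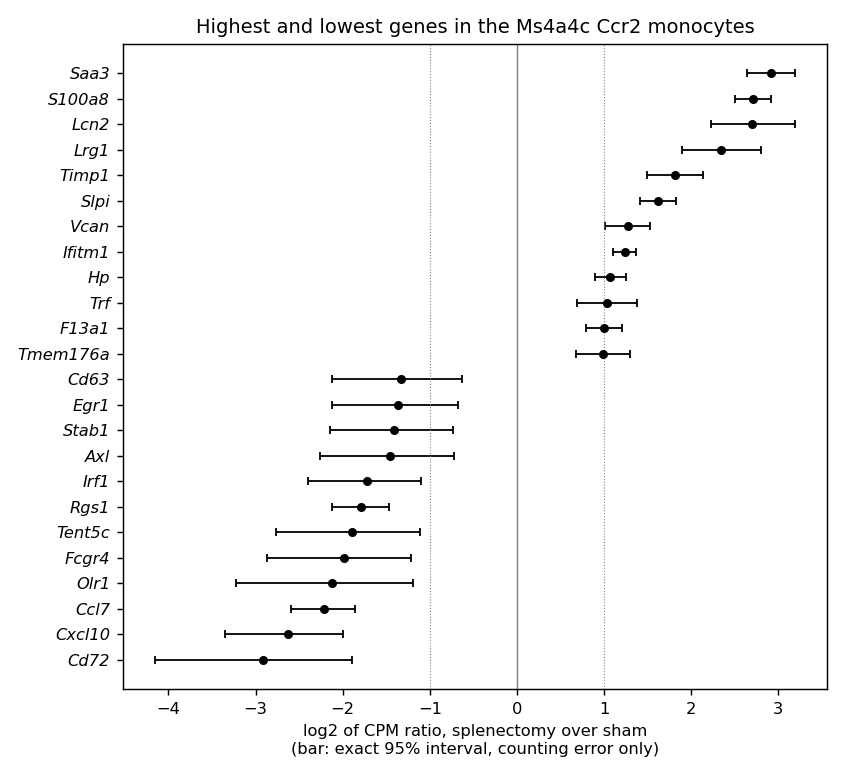
Log2 ratio of CPM, splenectomy over sham, for the 12 highest and 12 lowest genes of the Ms4a4c Ccr2 monocytes, with exact 95% intervals for counting error. The ratios run from 2.92 for Saa3 to -2.92 for Cd72, and dotted lines mark 2-fold.

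The monocytes were not uniform in MHC class II, which shows peptides to CD4 T cells. After thinning to 4000 UMIs, 36 of 68 monocytes of the splenectomy library (52.9%) and 73 of 172 of the sham library (42.4%) held under 10 UMIs of 11 genes of class II presentation and costimulation. The others were spread up to 327 UMIs in the splenectomy library and 248 in the sham library, with no gap that parts the cells in 2. A limit of 20 UMIs, chosen after these values were seen, therefore cuts through a range. It put 30 of 68 monocytes (44.1%, 32.1% to 56.7%) of the splenectomy library and 90 of 172 (52.3%, 44.6% to 60.0%) of the sham library on the high side. The intervals of the shares overlap. Summed class II genes had 11512 CPM in the splenectomy library and 15531 CPM in the sham library (log2 ratio -0.43). Chil3 monocytes had far less H2-Aa, and H2-Aa was higher in the Ms4a4c Ccr2 monocytes by log2 ratios of 3.06 in the splenectomy library and 3.80 in the sham library. Within the list 0 of 10 measured genes were 1.5-fold higher and 3 were lower in the splenectomy library. Cd74, the invariant chain that guards the peptide groove, had 4931 CPM in the splenectomy library and 7099 CPM in the sham library (log2 ratio -0.53). Ciita, the master regulator of class II genes, had 6.58 CPM in the splenectomy library and 20.2 CPM in the sham library (log2 ratio -1.62).

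**Figure D5:**
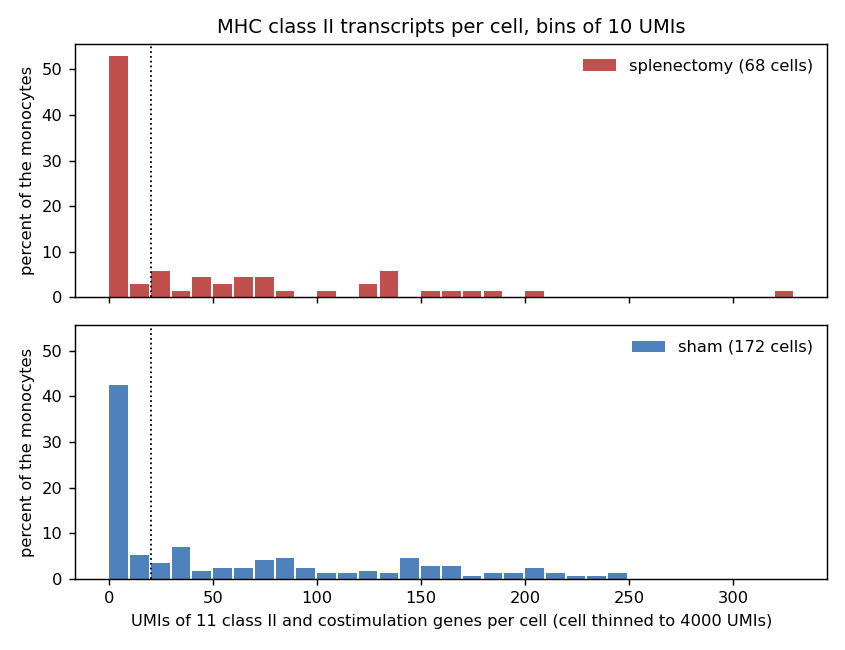
Percent of the Ms4a4c Ccr2 monocytes (vertical axis) by UMIs of 11 class II and costimulation genes after thinning to 4000 UMIs (horizontal axis, bins of 10 UMIs), splenectomy library above sham library. The bin under 10 UMIs holds 52.9% of the cells in the splenectomy library and 42.4% in the sham library, the other cells are spread over many bins, and the dotted line marks the limit of 20 UMIs.

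Class II-high and class II-low monocytes differed in other genes in both libraries. Of 1465 genes with enough counts, 15 were 2-fold higher (1.02%) and 33 were 2-fold lower (2.25%) in class II-high cells in both. Class II genes among them had made the division. The higher ones also held Clec10a, a lectin of antigen-presenting cells, with 57 UMIs in class II-high and 1 in class II-low cells of the splenectomy library, and 90 and 7 in those of the sham library. Lower ones held genes of classical monocytes. Hp had 195 CPM in class II-high and 869 CPM in class II-low cells of the splenectomy library, and 67.7 and 507 CPM in those of the sham library. Ccl2 had 199.6 CPM in class II-high and 1959 CPM in class II-low cells of the splenectomy library, and 501 and 2025 CPM in those of the sham library. Ly6a was higher in class II-high cells, at 360.3 against 55.9 CPM in the splenectomy library and 547 against 249 CPM in the sham library. Conventional dendritic cell markers, which include Clec10a, summed to 167 CPM in the splenectomy monocytes and 249 CPM in the sham monocytes, and 8 and 24 cells held at least 3 of 10. Among the 10 are Cd209a and Flt3, which the rule held under 2 UMIs together, so the selection limited these values. The part of conventional dendritic cells in the class II values was not tested.

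Ratios between the libraries were alike in direction on both sides of this division for some groups and not for others. Antiviral genes had a log2 ratio of -0.31 in class II-high and -0.64 in class II-low monocytes. Hp had log2 ratios of 1.53 in class II-high and 0.78 in class II-low cells, Vcan 1.52 and 1.01, and Ccl7 -3.62 and -2.22. Ccl2 was lower in class II-high cells, at 199.6 CPM in the splenectomy library and 501 CPM in the sham library (log2 ratio -1.33), and level in class II-low cells (log2 ratio -0.05). Summed MHC class I genes had log2 ratios of -0.42 in class II-high and -0.41 in class II-low cells, and PYHIN genes -0.19 and -0.72. Schlafen genes had 0.05 (-0.11 to 0.21) in class II-high and -0.29 (-0.42 to -0.16) in class II-low cells. Macrophage differentiation genes had log2 ratios of opposite sign, at 0.45 (0.33 to 0.57) in class II-high and -0.53 (-0.64 to -0.42) in class II-low cells. Glycolysis and hypoxia genes had 0.36 in class II-high cells and -0.01 (-0.07 to 0.06) in class II-low cells. Whether these ratios differ between the 2 sides was not tested.

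The genes that stood highest in the Ms4a4c Ccr2 monocytes beside each of the 3 other sets of Ccr2 cells, in both libraries, did so by small ratios. These comparisons rest on cells chosen by their counts and are descriptions. The 12 genes with the highest lowest ratio began with Ly6a, at a log2 ratio of at least 0.51 in every comparison, followed by Tmem176b at 0.45, Ifitm1 at 0.37, Napsa at 0.29 and Tmem176a at 0.28. Ifitm1 had 1076 CPM in the Ms4a4c Ccr2 monocytes and 185 CPM in Chil3 monocytes of the splenectomy library, and 457 and 88.6 CPM in those of the sham library. Of the 12, 3 belong to the MHC class I list: H2-T23, Psmb8 and Psme2, at lowest log2 ratios of 0.15, 0.13 and 0.13. The share of that list over all genes that could have been named was not counted.

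Against each set alone more genes passed 2-fold in both libraries. Against Ccr2 cells with under 3 Ms4a4c UMIs 35 genes were higher and 14 lower. In the splenectomy library alone 2.07% of genes were higher and 1.96% lower, and in the sham library alone 4.96% and 2.1%. Of the 35, 12 belonged to the 7 interferon lists, among them Irf7, Isg15, Oasl2, Slfn1 and Ifi211. Ms4a4c, a gene induced by interferon, had divided these sets, and the share of interferon genes over all genes compared was not counted. The 35 also held the granule, acute-phase and classical monocyte genes Lcn2, Slpi, Lrg1, Hp, Mmp8, F13a1 and Lyz2. The lower ones held the natural killer cell genes Gzma and Nkg7. Against Chil3 monocytes 22 were higher, with 5 class II pathway genes, Clec10a and the cyclin gene Ccnd1, and 32 were lower, with S100a8, Lcn2, Wfdc21 and Thbs1. Of the 22 higher genes 0 belonged to the 7 interferon lists, and of the 32 lower ones 0 did. Ifitm1 and Ly6a, which interferon induces but which are outside these lists, were among the 22. The share of these lists over all genes compared was not counted for any of the sets. In the splenectomy library alone 0.682% were higher and 3.69% lower, and in the sham library alone 1.34% and 2.11%. Against Areg Inhba Il6 monocytes 2 were higher, Tmem176a and Irf7, of which Irf7 is in the interferon lists. There 5 were lower, with the cytokine genes Il1a and Tnf, and 0 of these 5 were in the interferon lists. In the splenectomy library alone 0.537% were higher and 1.65% lower, and in the sham library alone 3.77% and 0.658%.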

How the data were processed

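Per the file headers and the submitters' processing notes, the authors made the deposited counts of UMIs per gene and barcode with Cell Ranger 5.0.0 on mm10 for 32285 features. The notes also name STAR, and the gene annotation was not given in the sources used here. The members and gene lists were chosen with earlier results of these data known. Counts of the chosen cells were summed per library and divided by their own total to give CPM, and ratios are splenectomy over sham with exact intervals for a ratio of Poisson counts. A count of 0 was replaced by 3 in the whole library. A gene was called at 2-fold with at least 50 counts, or at 1.5-fold with at least 20 counts within 27 lists. Named genes are the 12 highest and 12 lowest with at least 100 counts, a UMI in 10% of cells and 1.5-fold, without rule, mitochondrial, ribosomal, haemoglobin, predicted and immune receptor genes. They also include list members and 12 genes that lead over the other sets. Of the list symbols 3 were not among the features. Doublets were kept. Scrublet scores would take 2 members of the splenectomy library and 6 of the sham library. B cells, the background, had at least 3 of 5 markers and met the UMI and mitochondrial limits, but the neutrophil gene limit was not applied to them. Shares have exact Clopper-Pearson intervals. The steps were tested on simulated data. Versions were scipy 1.17.1, pandas 2.3.3 and numpy 2.4.6 under python 3.11.15. Values of some genes are not reported here.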

Additional observations from a re-analysis of the deposited data

How the results depend on the processing

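No paired analysis was possible because each group is 1 library and the labels carry no replicate numbers. For the 5 main results, 58 of 76 alternative values stayed close and 18 moved. A reversal of sign could occur only for the difference in share (11 values) and the antiviral ratio (16 values), and 0 reversed. The 2 counts of genes and the count of lists with a median under 0 have no sign to reverse. The difference in share, -3.58 points, became -3.32 with at least 2 Ms4a4c UMIs, -3.06 with at least 5, -2.29 with at least 5 Ccr2 UMIs, -1.12 with limits on thinned cells (1.08% in the splenectomy library and 2.20% in the sham library) and -3.11 without cells of 4 neutrophil markers. The antiviral log2 ratio, -0.47, became -0.52 with at least 2 Ms4a4c UMIs, -0.51 at a neutrophil limit of 0.05%, -0.53 with scaling by the median ratio, -0.65 without Ifitm3 and Ifi27l2a, -0.64 in class II-low and -0.31 in class II-high cells. The 22 higher and 70 lower genes became 68 and 245 at 20 counts and 7 and 15 at 200 counts. The higher genes were 12 of 2679 without cells of 4 neutrophil markers and 11 of 2073 in class II-high cells, beside 22 of 3435. The lists with a median under 0 numbered 17 of 22 with at least 5 measured genes, and 11 of 18 with limits on thinned cells. Among list medians past 1.5-fold, cell division turned to -0.25 with at least 2 Ms4a4c UMIs. Of 17 list medians short of 1.5-fold, 7 changed sign under some alternative, 6 of them with a move of at least 0.2. Chemokines, at -0.42, had 0.22 with limits on thinned cells. MHC class II, at -0.40, had 0.07 in class II-low cells, where the summed genes had -0.38. The Ms4a family, at 0.04, had -0.56, and recruited macrophage genes, at 0.34, had -0.11, both without cells of 4 neutrophil markers. Complement, at -0.46, had 0.05 in class II-low cells, and homing receptors, at -0.01, had 0.31 with limits on thinned cells. Named genes turned with limits on thinned cells Timp1 at -1.99, Ifitm1 at -0.65 and Ccl7 at 1.32; the cause was not tested. That setting left 28 monocytes in the splenectomy library and 61 in the sham library. The alternatives on neutrophil and lymphocyte markers, class II and the antiviral list were chosen after seeing the data. With 1 library per group, differences between animals are not covered by any interval.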

Other observations

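Aldh1l1, a folate enzyme gene, had 2 UMIs in the splenectomy monocytes and 58 in the sham monocytes (log2 ratio -3.64, -6.71 to -1.72), with a UMI in 2.94% of cells in the splenectomy library and 26.2% in the sham library. Of 3 measured genes of folate metabolism 1 was 1.5-fold higher, Mthfd2, and 2 were lower.

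Of 13 glycolysis and hypoxia genes 2 were 1.5-fold higher and 0 lower, with a median log2 ratio of 0.17. Slc2a1, the glucose transporter GLUT1, had 79.0 CPM in the splenectomy library and 52.7 CPM in the sham library (log2 ratio 0.59). Of 13 measured genes of recruited macrophages 1 was higher and 2 were lower. Spp1, osteopontin, had 461 CPM in the splenectomy library and 906 CPM in the sham library (log2 ratio -0.97), while Hmox1, haem oxygenase 1, had 374 and 255 CPM (log2 ratio 0.55). Of 5 measured cell division genes 3 were higher and 0 lower, and the largest count, Hmgb2, had 336 CPM in the splenectomy library and 196 CPM in the sham library (log2 ratio 0.78). The median of the measured genes turned to -0.25 with at least 2 Ms4a4c UMIs, and the sum had a log2 ratio of 0.83 in class II-high and 0.07 (-0.17 to 0.32) in class II-low cells.

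Some values rest on single cells. Il10 had 2 UMIs in the splenectomy library and 47 in the sham library, of which 36.2% lay in 1 cell. Mmp12 had 26 UMIs in the splenectomy library, of which 92.3% lay in 1 cell, and 15 in the sham library. Igkc, an immunoglobulin gene, had 0 UMIs in the splenectomy library and 60 in the sham library, of which 98.3% lay in 1 cell.

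Among homing receptors, Cxcr4, which holds cells in the marrow, had 104 CPM in the splenectomy library and 188 CPM in the sham library (log2 ratio -0.85), and Ccr1 had 360 and 264 CPM (log2 ratio 0.45). Of 13 stress and immediate early genes 1 was higher, the heat-shock gene Hspa1a (log2 ratio 1.57), and 2 were lower, Egr1 (log2 ratio -1.36) and Atf3 (log2 ratio -0.62). Of 7 measured genes of macrophage differentiation 0 were higher and 2 were lower.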
